A study of Mus musculus with 12 samples.

Results

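The satellite cells of mice over 1 year old were compared with those of every younger stage of the series, to find genes whose level in aged cells lay outside the range of all of them. The comparison used 12 of the 12 arrays of the series. The aged arrays (n = 3, hindlimb muscle of 8 pooled mice) were set against the mean of 3 younger stage means, so that each younger stage had the same weight. The younger stages were fetal (E17.5, forelimb and hindlimb of 4 mice), adolescent (postnatal day 21, hindlimb of 6 mice) and adult (2 to 3 months, hindlimb of 8 mice), with 3 arrays each. All mice were heterozygous for Pax7-ZsGreen, a green fluorescent reporter of Pax7, with the strain given as C57BL/6, and cells were sorted for that fluorescence against gates that used wild type SV129 muscle as the negative control. No group lacked the reporter allele. Whether the 3 replicates of a stage came from separate pools of mice is not given in the sources used here, so the p-values cover the spread among these arrays alone, and that spread may be technical. The fetal cells also differ from the others in including forelimb muscle, and for them stage and limb cannot be told apart.

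Satellite cells are the stem cells of skeletal muscle. They lie between the fibre and its basal lamina, carry the transcription factor Pax7, divide during fetal and early postnatal growth and are mostly quiescent in adult muscle. In old muscle they are known to be fewer and slower to repair damage, and signalling through JAK-STAT, Notch, TGF-beta and FGF has been studied there.

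Pax7 stood well above the array medians at every age. The cells were sorted on a reporter of this gene, so its level is no measure of their purity. Pax7 read 11.51, 11.67 and 11.71 on the log2 scale in aged cells, 10.36, 10.50 and 10.51 in fetal cells, 10.84, 11.03 and 11.00 in adolescent cells and 11.45, 11.66 and 11.69 in adult cells. The aged and adult arrays overlapped. Array medians ran from 6.13 to 6.29, and precision is limited by there being 3 arrays a stage. Olfactory and vomeronasal receptors, which satellite cells are not known to use, served as a measure of background over 1212 probe sets. Aged replicate 1 had a mean of 4.30, and adult replicates 2 and 3 had 4.47 and 4.50, against 3.79 to 3.91 on the other 9 arrays. Adult replicate 1 differed from its stage in another way, with Mki67, a marker of dividing cells, at 9.28 against 6.58 and 6.44 on the other adult arrays. The main counts, and list counts where a statement rests on these arrays, are given with and without them. Without adult replicate 1, 7844 genes in all differed between aged and adult cells (4042 higher, 3802 lower), against 697 with all 12 arrays. The fit without adult replicate 1 leaves adult replicates 2 and 3, both of high receptor signal, as the adult arrays. In it 5 of 10 housekeeping and 16 of 40 respiratory chain genes were higher than in adult cells, and 0 of either were lower. List counts against adult cells are to be read beside these values. The values are from bulk RNA of sorted cells, in which fewer cells of a type and less RNA per cell cannot be told apart.

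Aged cells lay above every younger stage at 167 genes and below every younger stage at 4, of 19938 genes tested. These are 0.838% and 0.0201% of the genes. A gene counted where its 3 differences, aged minus fetal, aged minus adolescent and aged minus adult, had one sign and the largest of their 3 p-values in limma, adjusted over all genes by Benjamini-Hochberg, was under 0.05. Its size is the difference from the nearest younger stage. At an unadjusted p under 0.05 the counts were 1015 above and 255 below. At 45 of the 167 genes the aged mean was at least 2-fold over the nearest stage, and at none of the 4 was it 2-fold below. The nearest younger stage was adult for 130 of the 167, adolescent for 27 and fetal for 10. The stage means climbed in the order fetal, adolescent, adult, aged at 108 genes, and the 3 younger means lay within 0.5 of each other at 59, with 30 genes in both sets. At 22 of the 167 all 3 younger means lay within the range of receptor signal, under the 95th percentile of the receptor probe sets of that stage, so their fold is a lower bound.

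**Figure D1:**
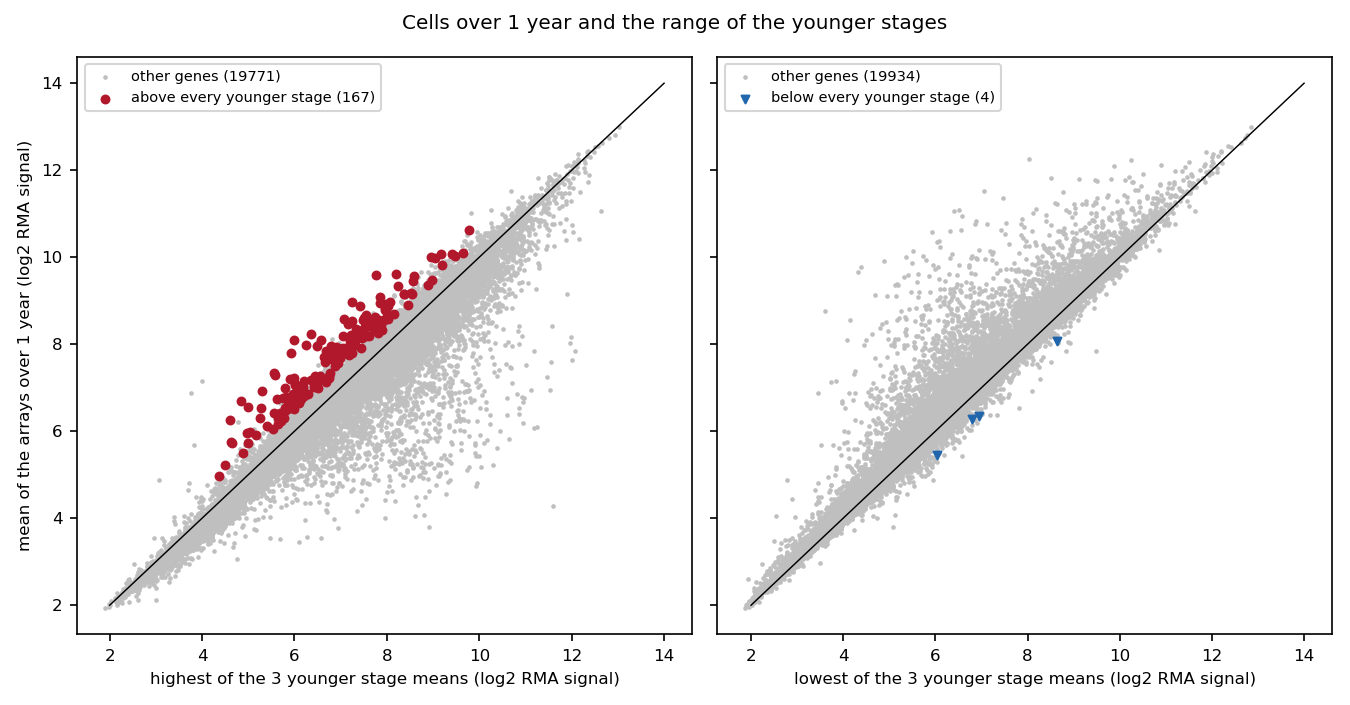
Each point is a gene, with the mean of the aged arrays on the vertical axis and, on the horizontal axis, the highest (left) or the lowest (right) of the 3 younger stage means, all as log2 RMA signal. Points above the line on the left lie over the whole younger range, with the 167 that passed in red, and the 4 that passed below it stand as triangles on the right.

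At all 171 genes the 3 aged arrays lay outside the 9 younger arrays. The genes were called from these same values, so this is no separate support. Over all genes the 3 aged arrays lay above the 9 younger ones at 941 (4.72%) and below them at 369 (1.85%). The count depended on single arrays in both directions. Without aged replicate 1 there were 435 genes above and 29 below, 164 of the 171 among them. Without adult replicate 1 there were 296 above and 11 below, 162 of the 171 among them. Without all 3 arrays of high receptor signal there were 498 above and 348 below, with adult replicate 1 as the lone adult array, assumed to vary like the other groups. Without aged replicate 2 there were 68 above and 0 below, and without aged replicate 3, 67 above and 0 below. Leaving out one of adolescent replicates 2 and 3 or adult replicates 2 and 3 gave 82 to 96 genes in all. Of the 167, 64 passed in all 12 fits that left out 1 array, and of the 4 genes below, 0 did.

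**Figure D2:**
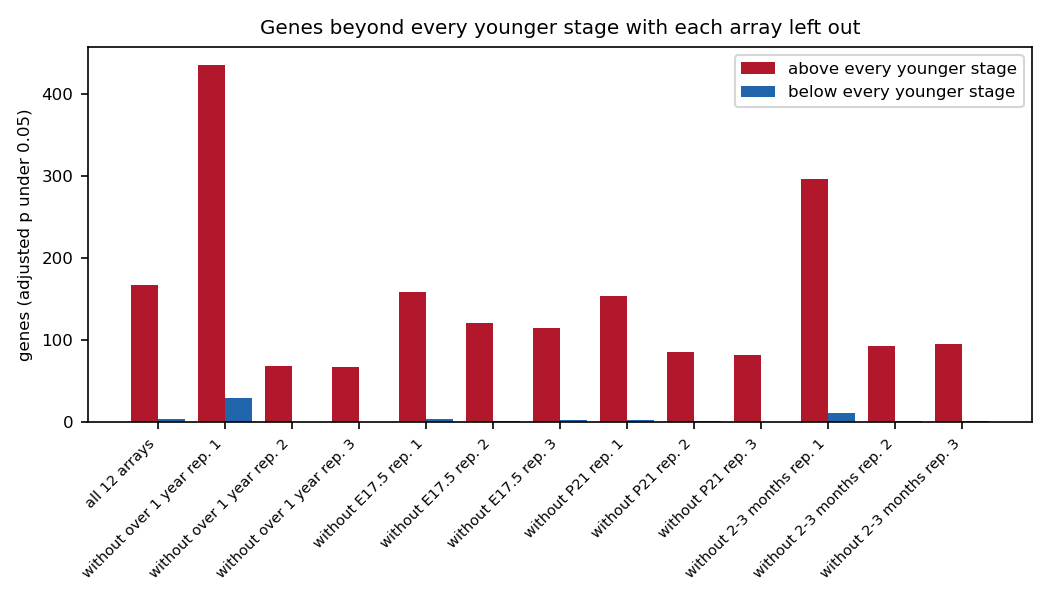
Bars give the number of genes above (red) and below (blue) every younger stage at an adjusted p under 0.05, for all 12 arrays and with each array left out in turn. The count runs from 67 without aged replicate 3 to 464 without aged replicate 1.

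Replicates 2 and 3 of each stage were close to each other. With those replicates averaged into 1 array per stage, the test passed 1 gene, Doc2b, at an adjusted p of 0.0403 in limma. By the same test fetal cells lay above every other stage at 1266 genes and below at 1267, in all 1818 to 3120 with 1 array left out. Adolescent cells did so at 15 and 2, in all 5 to 85 with 1 array left out. Adult cells lay beyond every other stage at 0 genes in limma, with 1055 at an unadjusted p under 0.05, and at 1867 above and 1406 below without adult replicate 1.

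Among the 12 largest rises over the nearest stage stood subunits of neurotransmitter receptors. Grin2a encodes a subunit of the NMDA glutamate receptor. It read 7.51, 8.46 and 8.31 in aged cells, 4.45, 4.47 and 4.64 in fetal cells, 4.60, 4.26 and 4.60 in adolescent cells and 5.66, 6.22 and 6.06 in adult cells. Every aged array was above every adult array, and the adult arrays were above all those of the earlier stages. The aged mean was 4.34-fold over the adult mean (log2 difference 2.12 ± 0.22, SE, adjusted p = 0.000738). Gabra3, a subunit of the GABA-A chloride channel, read 9.08, 9.02 and 8.83 in aged cells, 6.51, 6.03 and 5.92 in fetal cells, 6.53, 6.78 and 6.91 in adolescent cells and 7.49, 7.06 and 7.17 in adult cells. It was 3.32-fold over the adult mean (1.73 ± 0.17, adjusted p = 0.000396). Gabre, another subunit of that channel, stood at 8.61, 9.04 and 8.98 in aged cells and at 7.97, 8.06 and 8.06 in adult cells, with fetal and adolescent means of 5.83 and 5.78. All 3 of these genes passed in each of the 12 fits without 1 array. Grin2a and Gabre belong to the list of neuronal-type genes, and Gabra3 does not. Of its 58 measured members 2 lay above every younger stage and 0 below, against 0.838% and 0.0201% of all genes. Against the mean of the younger stages 11 were higher and 6 lower, where 12.6% and 11.7% of all genes were. The median difference was -0.05, against -0.03 over all genes, so the list as a whole did not shift. In aged against adult cells 4 were higher and 0 lower, against 3.28% and 0.216% of all genes. Without adult replicate 1 these were 7 and 19, against 4042 and 3802 of all genes. At all 4 stages 27 lay within the range of receptor signal. Sv2b, a synaptic vesicle protein (6.51, 6.79 and 6.62 in aged cells, 5.33, 5.04 and 5.04 in adult cells), and Gria3, an AMPA glutamate receptor subunit (6.73, 6.84 and 6.53 in aged cells, 6.02, 5.40 and 5.50 in adult cells), were higher in aged than in adult cells but did not pass against every stage.

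Among the other large rises, Doc2b, a calcium sensor of vesicle fusion, read 7.25, 7.47 and 7.18 in aged cells, 5.51, 5.50 and 5.47 in fetal cells, 5.54, 5.56 and 5.54 in adolescent cells and 5.37, 5.57 and 5.83 in adult cells. The younger stages were level, with all 9 arrays between 5.37 and 5.83. The aged mean was 3.27-fold over the adult mean (1.71 ± 0.12, adjusted p = 5.26e-05), a lower bound because the adult mean lay within the range of receptor signal. Slc24a2, a sodium, calcium and potassium exchanger, read 7.78, 8.12 and 8.04 in aged cells, 5.02, 5.16 and 4.94 in fetal cells, 5.99, 5.82 and 5.76 in adolescent cells and 6.66, 6.09 and 5.97 in adult cells (1.74 ± 0.16, adjusted p = 0.00039). Calhm5, of a family of calcium homeostasis modulators, read 7.62, 7.37 and 7.04 in aged cells and 5.61, 5.56 and 5.49 in adult cells (1.79 ± 0.19, adjusted p = 0.000738), also a lower bound. Scn7a, a sodium channel subunit singled out after its values were seen, read 9.54, 9.70 and 9.61 in aged cells, 5.81, 5.63 and 5.44 in fetal cells, 7.37, 7.20 and 7.20 in adolescent cells and 8.07, 8.24 and 8.26 in adult cells. Its level climbed at each stage, and the aged mean was 2.69-fold over the adult mean.

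Genes of the matrix, of adaptors and of signalling were also among the largest rises. Spock3, a testican proteoglycan, read 7.83, 8.46 and 8.43 in aged cells, 4.61, 4.64 and 4.60 in fetal cells, 5.39, 5.08 and 5.09 in adolescent cells and 6.96, 5.96 and 6.13 in adult cells (1.89 ± 0.23, adjusted p = 0.00156). Anks1b, an adaptor protein of synapses, read 7.33, 7.96 and 8.07 in aged cells, 5.27, 5.15 and 5.09 in fetal cells, 5.59, 5.33 and 5.48 in adolescent cells and 5.89, 5.98 and 5.91 in adult cells (1.86 ± 0.16, adjusted p = 0.000227). In both genes aged replicate 1 was the lowest aged array and still above the whole younger range. Rassf9, of the Ras association domain family, read 5.98, 7.09 and 7.02 in aged cells and at most 5.37 in the younger arrays. Its nearest stage was adolescent (1.85 ± 0.28, adjusted p = 0.00765), it passed in 10 of the 12 fits without 1 array, and its younger means all lay within the range of receptor signal.

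Of the genes level across the younger stages, 5 with the largest rises were described in full, Doc2b among them. Cyp26a1, the enzyme that breaks down retinoic acid, read 6.12, 6.35 and 6.30 in aged cells, 4.17, 4.35 and 4.25 in fetal cells, 4.32, 4.59 and 4.44 in adolescent cells and 4.80, 4.56 and 4.43 in adult cells (1.66 ± 0.12, adjusted p = 5.26e-05). Btla, an inhibitory receptor of lymphocytes, read 6.75, 7.14 and 6.87 in aged cells, 4.83, 5.01 and 4.55 in fetal cells, 5.29, 5.27 and 5.32 in adolescent cells and 5.13, 5.24 and 5.51 in adult cells (1.62 ± 0.14, adjusted p = 0.000227). Angpt1, a ligand of the Tek receptor, read 6.19, 6.82 and 6.66 in aged cells, 4.79, 4.58 and 4.77 in fetal cells, 4.82, 4.67 and 4.74 in adolescent cells and 5.37, 4.71 and 4.91 in adult cells (1.56 ± 0.18, adjusted p = 0.00115). The younger means of all 3 lay within the range of receptor signal, so these differences are lower bounds. Cped1, a gene known by its protein domains, read 8.24, 8.80 and 8.58 in aged cells, 7.77, 6.67 and 6.90 in fetal cells, 7.40, 7.05 and 7.08 in adolescent cells and 7.23, 7.25 and 7.23 in adult cells (1.30 ± 0.23, adjusted p = 0.0219), and passed in 5 of 12 fits without 1 array. Pof1b, an actin-binding protein, did climb through the younger stages, with means of 4.09, 4.92 and 6.57 in fetal, adolescent and adult cells, and read 7.99, 8.25 and 8.02 in aged cells (1.52 ± 0.15, adjusted p = 0.000396).

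**Figure D3:**
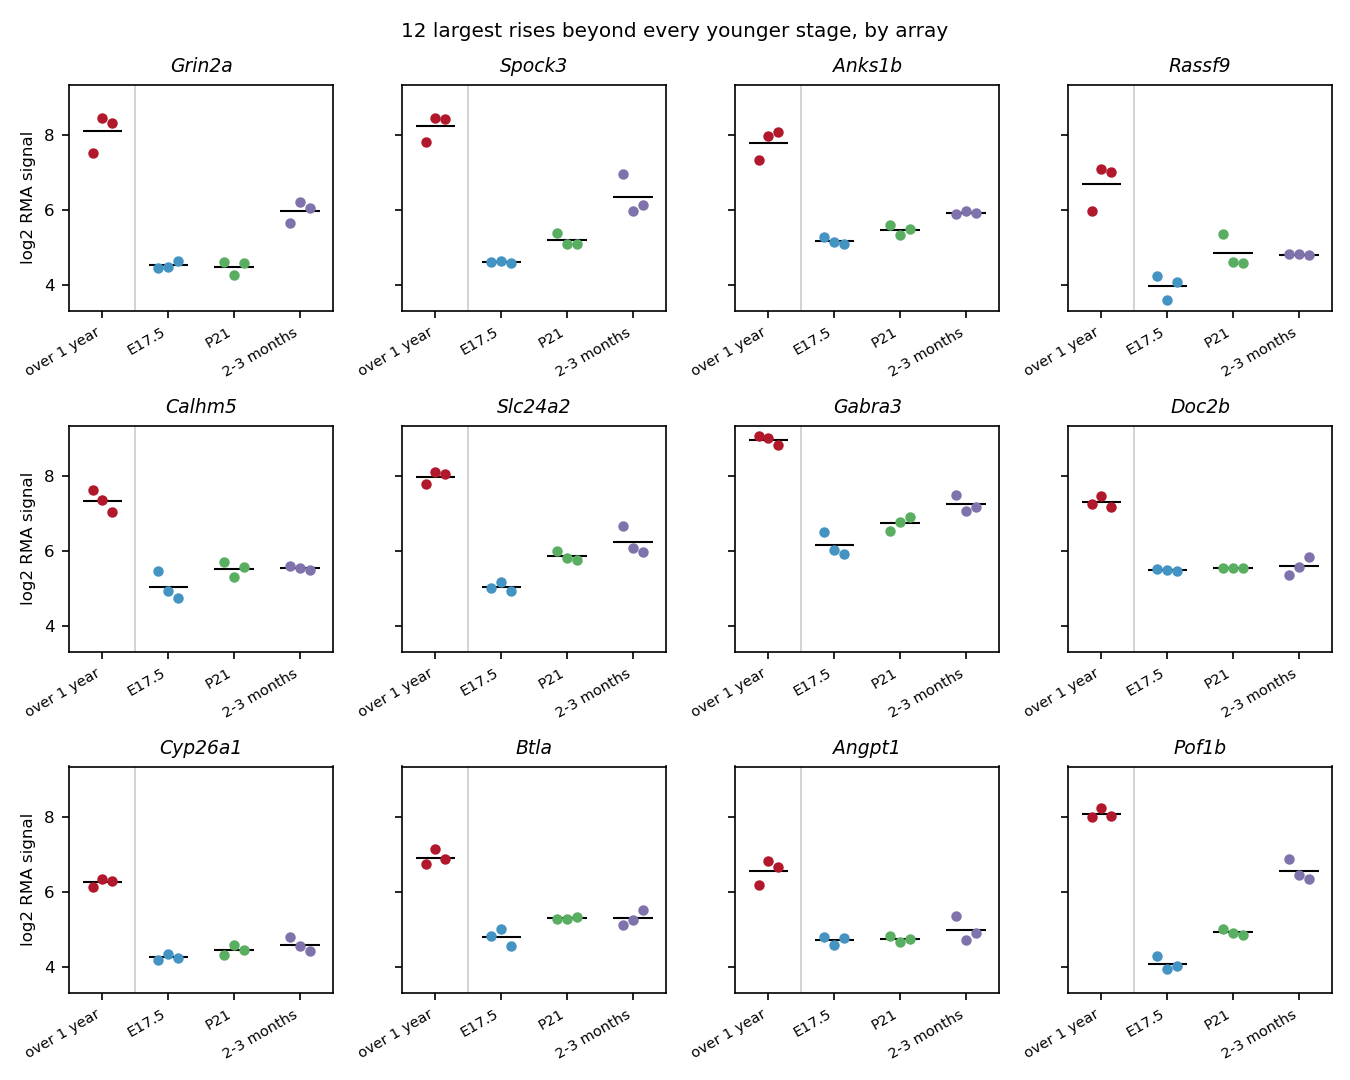
Each panel shows a gene among the 12 largest rises beyond every younger stage, with the log2 RMA signal of each array as a point and the stage mean as a line. The aged arrays, at the left of each panel, lie above all 9 younger arrays in every panel, which the choice of these genes required.

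In the BMP and TGF-beta list 4 of 41 measured genes lay above every younger stage and 0 below. Its ligands bind paired receptors that phosphorylate Smad proteins, and the Id genes are direct targets of BMP signals. Among the ligands, Bmp2 read 6.83, 6.73 and 6.62 in aged cells, with means of 5.77, 6.01 and 5.96 in fetal, adolescent and adult cells (nearest difference 0.71 ± 0.13, adjusted p = 0.0225). Of the Smads, Smad9, which carries BMP signals, read 6.80, 6.62 and 6.81 in aged cells, 5.74, 5.89 and 5.80 in fetal cells, 6.05, 5.80 and 5.78 in adolescent cells and 6.09, 6.22 and 6.09 in adult cells (0.61 ± 0.11, adjusted p = 0.0177). Smad7, an inhibitor of both branches, read 8.21, 7.89 and 7.90 in aged cells, 6.87, 6.77 and 6.77 in fetal cells, 7.03, 6.84 and 6.88 in adolescent cells and 7.26, 7.23 and 7.21 in adult cells (0.77 ± 0.10, adjusted p = 0.00298). The 3 aged arrays of each gene stood above all younger ones. The target Id3 read 10.75, 10.50 and 10.59 in aged cells, 7.23, 7.53 and 7.54 in fetal cells, 8.66, 8.54 and 8.56 in adolescent cells and 9.82, 9.74 and 9.77 in adult cells (0.84 ± 0.11, adjusted p = 0.0022). Id3 thus climbed at every stage, while the younger means of the other 3 lay within 0.5 of each other.

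Of the 41 genes, 17 were higher and 4 lower than the mean of the younger stages. Over all genes, to be set beside this list and later ones, 12.6% were higher (2516 genes) and 11.7% lower (2341 genes). Above every younger stage lay 0.838% of all genes. The list's median difference was 0.24, against -0.03 over all genes. In aged against adult cells 6 of the 41 were higher and 0 lower, where 3.28% of all genes were higher and 0.216% lower. Without adult replicate 1 these were 18 and 1 of the 41, where 4042 of the 19938 genes were higher and 3802 lower. Mstn, the muscle growth inhibitor myostatin, was lower than the mean of the younger stages (-1.82). Its mean was 4.81 in aged cells against 9.95, 5.35 and 4.59 in fetal, adolescent and adult cells, and all but the fetal level lay within the range of receptor signal, where levels have no order. The same 4 genes passed without aged replicate 1, the same 4 and Smad6 without adult replicate 1, and Id3, Smad7, Smad9 and the receptor gene Tgfbr2 without the 3 arrays of high receptor signal. Bambi, a decoy receptor of the pathway, Skil, a repressor of Smad targets, and Inhbb, an activin subunit, were outside the list and singled out after their values were seen. Bambi read 8.09, 7.73 and 7.77 in aged cells against younger means of 7.09, 6.97 and 7.01, Skil 8.90, 8.95 and 8.87 against 7.71, 8.10 and 8.45, and Inhbb 8.39, 8.60 and 8.68 against 6.06, 7.45 and 7.77, in fetal, adolescent and adult cells in each case.

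In the JAK-STAT list, 2 of 40 measured genes lay above every younger stage, against 0.838% of all genes. This pathway runs from cytokine receptors through Janus kinases to STAT transcription factors. Among the receptors, Osmr, which binds oncostatin M, read 8.40, 8.73 and 8.71 in aged cells, 6.16, 5.41 and 5.57 in fetal cells, 7.92, 7.20 and 7.25 in adolescent cells and 7.59, 7.38 and 7.53 in adult cells (1.11 ± 0.21, adjusted p = 0.0303). Among the targets, Pim1, a kinase induced by STAT signals, read 8.81, 8.36 and 8.26 in aged cells, 7.43, 7.64 and 7.53 in fetal cells, 7.53, 7.56 and 7.68 in adolescent cells and 7.48, 7.56 and 7.56 in adult cells (0.88 ± 0.13, adjusted p = 0.00599). Pim1 was level before old age, and Osmr was not. Pim1 passed in all 12 fits without 1 array, and Osmr in 5. Lifr also passed without aged replicate 1, where 435 of all genes lay above every younger stage. Myc also passed without adult replicate 1, where 296 of all genes did. Socs3, the feedback inhibitor, read 10.88, 10.37 and 10.59 in aged cells and 9.68, 9.90 and 9.80 in adult cells, higher in aged than in adult cells (0.82 ± 0.18) but with an adjusted p of 0.0614 against every stage in limma. The kinase gene Jak2 had aged means above all stages (8.00, 8.27 and 8.22 in aged cells, at most 7.98 on a younger array) and an adjusted p of 0.763 against every stage, and Stat3 (9.51, 9.46 and 9.48 in aged cells, at most 9.41 on a younger array) had an adjusted p of 1. Il6, a ligand, stayed at or under 3.72 on every array, within the range of receptor signal at all 4 stages. Of the list, 15 genes were higher and 3 lower than the mean of the younger stages (median 0.22), against 12.6% and 11.7% of all genes. In aged against adult cells 6 were higher and 1 lower, against 3.28% and 0.216% of all genes. Without adult replicate 1 these were 17 and 2, against 4042 and 3802 of all genes. At 11 genes of the list the aged arrays lay above all 9 younger arrays, against 4.72% of all genes.

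Interferon response genes, switched on by antiviral cytokines, were higher than the mean of the younger stages at 25 of 39 and lower at 0, with a median of 0.56. Only Irf9, the DNA-binding subunit of the complex that drives these genes, lay above every younger stage: it read 7.58, 7.86 and 7.78 in aged cells, 6.49, 6.54 and 6.74 in fetal cells, 7.05, 6.89 and 7.04 in adolescent cells and 7.29, 7.11 and 7.15 in adult cells (0.56 ± 0.11, adjusted p = 0.0333). In aged against adult cells 6 of the 39 were higher and 0 lower, against 3.28% and 0.216% of all genes. These became 14 and 0 without aged replicate 1, where 1598 of all genes were higher and 616 lower. They became 24 and 2 without adult replicate 1, where 4042 of all genes were higher and 3802 lower. Leaving out the 3 arrays of high receptor signal leaves adult replicate 1, the highest adult array for this list, as the adult array. Aged replicate 1 was the lowest aged array here, with a mean of 7.16 over the list against 7.43 and 7.38 on the other aged arrays. Adult replicate 1 stood at 7.16 against 6.82 and 6.78 on the other adult arrays, level with aged replicate 1. Without aged replicate 1, 5 genes lay above every younger stage (Gbp3, Ifit3, Iigp1, Irf9 and Parp14), and without adult replicate 1, 4 did (Ifih1, Irf9, Oasl2 and Parp14). Genes outside the list that are known to respond to interferon were singled out after their values were seen. Ddx60, an antiviral helicase, read 5.68, 6.67 and 6.55 in aged cells against means of 4.76, 5.15 and 5.26 in fetal, adolescent and adult cells. Its adjusted p in limma was 0.0481, and it passed in 2 of the 12 fits without 1 array. Gbp2b, a guanylate-binding protein, read 6.33, 6.75 and 6.70 in aged cells against 4.90, 5.61 and 5.85. Ifi205, of the DNA-sensing family, read 6.00, 5.99 and 5.96 in aged cells against 4.10, 5.03 and 4.80, and passed in 7 of the 12 fits. The younger means of Ddx60 and Ifi205 all lay within the range of receptor signal.

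Promoter sequences, the 250 bases before each gene's start in RefSeq (GRCm38.p6), were at hand for 125 of the 167 genes and for 15614 of those tested, and were searched on both strands. The core of the interferon-stimulated response element, a pair of GAAA repeats with a gap of 2 bases, which the complex of Irf9 is known to bind, was in 8 of the 125 (6.4%) and in 457 of the 15614 (2.93%). In 10 of the 15614 it overlapped a STAT site. The 8 genes were Ccl19, Ddx60, Gbp2b, Ifi205, Inhbb, Plk2, Spock3 and Sqor. The other motifs were in 5 of 125 (4.0%, STAT site, TTCNNNGAA, 6.70% of all), 5 of 125 (4.0%, AP-1, TGANTCA, 6.11% of all), 1 of 125 (0.8%, cyclic AMP response element, TGACGTCA, 2.12% of all) and 9 of 125 (7.2%, E-box, CACGTG, 7.03% of all). A match is a description of letters, not a site shown to be bound. The promoters of the 3 interferon genes above and of the chemokine Ccl19 are printed because they carry the element, which stands in capitals, at 2 places in Ddx60 and on the opposite strand in Gbp2b.
Ddx60 (chr8:61927837-61928086, plus strand): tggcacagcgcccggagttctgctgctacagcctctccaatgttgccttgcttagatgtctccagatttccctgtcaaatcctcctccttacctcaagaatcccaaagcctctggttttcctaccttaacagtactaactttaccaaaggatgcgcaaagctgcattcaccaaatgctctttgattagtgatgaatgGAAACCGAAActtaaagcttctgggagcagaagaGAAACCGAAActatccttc
Gbp2b (chr3:142594597-142594846, plus strand): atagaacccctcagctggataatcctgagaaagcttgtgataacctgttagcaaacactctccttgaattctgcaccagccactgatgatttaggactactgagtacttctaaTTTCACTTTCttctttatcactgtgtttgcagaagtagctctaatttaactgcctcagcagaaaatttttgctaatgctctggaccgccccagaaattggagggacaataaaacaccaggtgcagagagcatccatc
Ifi205 (chr1:174031756-174032005, minus strand): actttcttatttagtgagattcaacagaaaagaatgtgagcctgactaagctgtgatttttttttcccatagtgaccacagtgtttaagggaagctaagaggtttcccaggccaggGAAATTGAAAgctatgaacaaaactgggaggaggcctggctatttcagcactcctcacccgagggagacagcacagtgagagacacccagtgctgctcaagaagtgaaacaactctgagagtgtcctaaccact
Ccl19 (chr4:42756366-42756615, minus strand): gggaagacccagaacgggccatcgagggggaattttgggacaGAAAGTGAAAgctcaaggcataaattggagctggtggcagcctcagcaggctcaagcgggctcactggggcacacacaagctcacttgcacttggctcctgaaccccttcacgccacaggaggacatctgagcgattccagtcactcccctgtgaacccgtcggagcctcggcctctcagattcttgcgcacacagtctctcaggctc

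Ccl19, a chemokine that draws lymphocytes and dendritic cells, read 10.27, 9.72 and 9.96 in aged cells, 6.38, 6.34 and 6.23 in fetal cells, 7.55, 7.30 and 7.34 in adolescent cells, with a mean of 9.04 in adult cells (0.95 ± 0.14, adjusted p = 0.00538). Its level rose steeply between adolescent and adult age and again by a smaller step in aged cells. Other secreted immune genes above every younger stage, also singled out after their values were seen, included the complement components C7 (5.97, 6.22 and 6.16 in aged cells, with an adult mean of 5.41), C4b (6.53, 6.74 and 6.75, adult mean 6.01) and C1ra (6.63, 6.84 and 6.98, adult mean 6.21), and Cx3cl1 (7.73, 7.92 and 8.03, adult mean 7.10), a membrane-bound chemokine. Casp4, an inflammatory caspase, read 5.63, 5.81 and 5.77 in aged cells and lay between 4.39 and 4.91 on all 9 younger arrays.

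Antigen presentation genes, which load and display peptides on the cell surface, were higher than the mean of the younger stages at 14 of 17 and lower at 0 (median 0.71), and 1 was higher than in adult cells. That 1 became 6 without aged replicate 1, where 1598 of all genes were higher, and 6 without adult replicate 1, where 4042 were. Above every younger stage lay 1 gene with all arrays and 2 without aged replicate 1 (H2-Aa and H2-Q4). H2-Q4, a class Ib histocompatibility gene that belongs to a family of near-identical copies whose probes may share signal, read 8.38, 8.79 and 8.74 in aged cells, 5.52, 5.03 and 5.49 in fetal cells, 7.70, 7.75 and 7.79 in adolescent cells and 7.87, 7.20 and 7.42 in adult cells (0.89 ± 0.18, adjusted p = 0.0417), and passed in 4 of the 12 fits without 1 array. The class II genes split the arrays of a stage. H2-Aa read 8.08, 9.67 and 9.63 in aged cells, and 7.48, 8.49 and 8.48 in adult cells. Cd74, the class II chaperone, read 8.00, 9.65 and 9.69 in aged cells and 7.34, 9.03 and 8.88 in adult cells. Ptprc, the common antigen of white blood cells, followed the same pattern at 5.93, 7.21 and 7.03 in aged cells and 5.30, 6.32 and 6.41 in adult cells. Of 21 macrophage markers 6 were higher than the mean of the younger stages and 0 were higher than in adult cells. Without aged replicate 1, 3 were higher than in adult cells, where 1598 of all genes were, and 1, Mpeg1, lay above every younger stage. Leaving out the 3 arrays of high receptor signal takes out adult replicates 2 and 3, with a macrophage list mean of 6.27 and 6.32. It leaves adult replicate 1, at 5.82, as the adult array. H2-Aa, Cd74 and Ptprc were also lowest in adult cells on that array. Such a fit sets aged cells against the lower adult level of these genes. The mean of the list stood at 6.00 to 6.56 on aged arrays, 5.93 to 5.99 on fetal, 6.02 to 6.37 on adolescent and 5.82 to 6.32 on adult arrays, and the defining markers Csf1r (mean 6.35 in aged cells, 6.00 in adult cells) and Adgre1 (5.69 in aged cells, 5.37 in adult cells) did not pass. The part of other cells in these results was not tested.

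Jchain, which joins antibody chains in plasma cells, was the extreme case. It read 4.54, 8.50 and 8.42 in aged cells and between 3.82 and 4.25 on the 9 younger arrays. Aged replicates 2 and 3 were high and aged replicate 1 was close to the younger range. The difference from the mean was 3.24 ± 0.61 (adjusted p = 0.00162), and against every stage the adjusted p in limma was 0.0846. The lymphocyte and plasma cell list had 3 of 14 members higher than the mean of the younger stages, 0 above every younger stage, and 9 within the range of receptor signal at all stages. Without aged replicate 1, 5 were higher than that mean and Jchain lay above every younger stage. Adult replicates 2 and 3, of high receptor signal, had a list mean of 5.18 and 5.20, against 4.87 on adult replicate 1. A fit without them sets aged cells against the lower adult array alone.

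Immediate early and dissociation genes, which react within minutes to growth signals and to the enzymatic release of cells from tissue, were higher than the mean of the younger stages at 25 of 33 and lower at 1, with a median of 0.93. Of these 33, 3 lay above every younger stage and 0 below, 8 were higher and 0 lower than in adult cells, and at 16 the aged arrays were above all 9 younger arrays. Without adult replicate 1 the 3 became 6, with Atf3, Klf6 and Myc added. Ier3, a stress-response gene, read 8.13, 7.76 and 7.62 in aged cells, 6.01, 6.21 and 6.02 in fetal cells, 6.33, 6.25 and 6.00 in adolescent cells and 6.84, 6.79 and 6.60 in adult cells (1.09 ± 0.14, adjusted p = 0.00199). Klf4, a zinc finger transcription factor, read 9.46, 9.51 and 9.39 in aged cells, 7.50, 7.62 and 7.58 in fetal cells, 8.04, 7.95 and 7.92 in adolescent cells and 8.31, 8.65 and 8.71 in adult cells (0.90 ± 0.11, adjusted p = 0.00162). Klf2, a related factor also on the quiescence list, read 7.99, 8.22 and 8.21 in aged cells, 6.94, 6.99 and 7.03 in fetal cells, 7.28, 7.16 and 7.21 in adolescent cells and 7.29, 7.20 and 7.43 in adult cells (0.84 ± 0.10, adjusted p = 0.00139). Klf2 was level before old age and Klf4 rose with each stage, and all 3 genes passed in each fit without 1 array. Atf3, a stress-induced factor, read 11.25, 10.94 and 10.84 in aged cells and at most 10.23 on a younger array, with an adjusted p of 0.0777 against every stage. The mean of the whole list was 9.79 to 10.01 on aged arrays, 8.37 to 8.63 on fetal, 8.89 to 8.94 on adolescent and 9.33 to 9.54 on adult arrays, so it climbed with age and was highest on aged arrays. The labels' protocol gives the same digestion for all stages. Pim1, Osmr, Socs3 and Id3 were also highest on the aged arrays, and their course across the younger stages differed from gene to gene. Id3 climbed at each stage as the list did, and Pim1 was level. Osmr had means of 7.46 and 7.50 in adolescent and adult cells. Socs3 had a mean of 9.13 in fetal and 8.76 in adolescent cells. The part of this list in the levels of these genes was not tested.

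**Figure D4:**
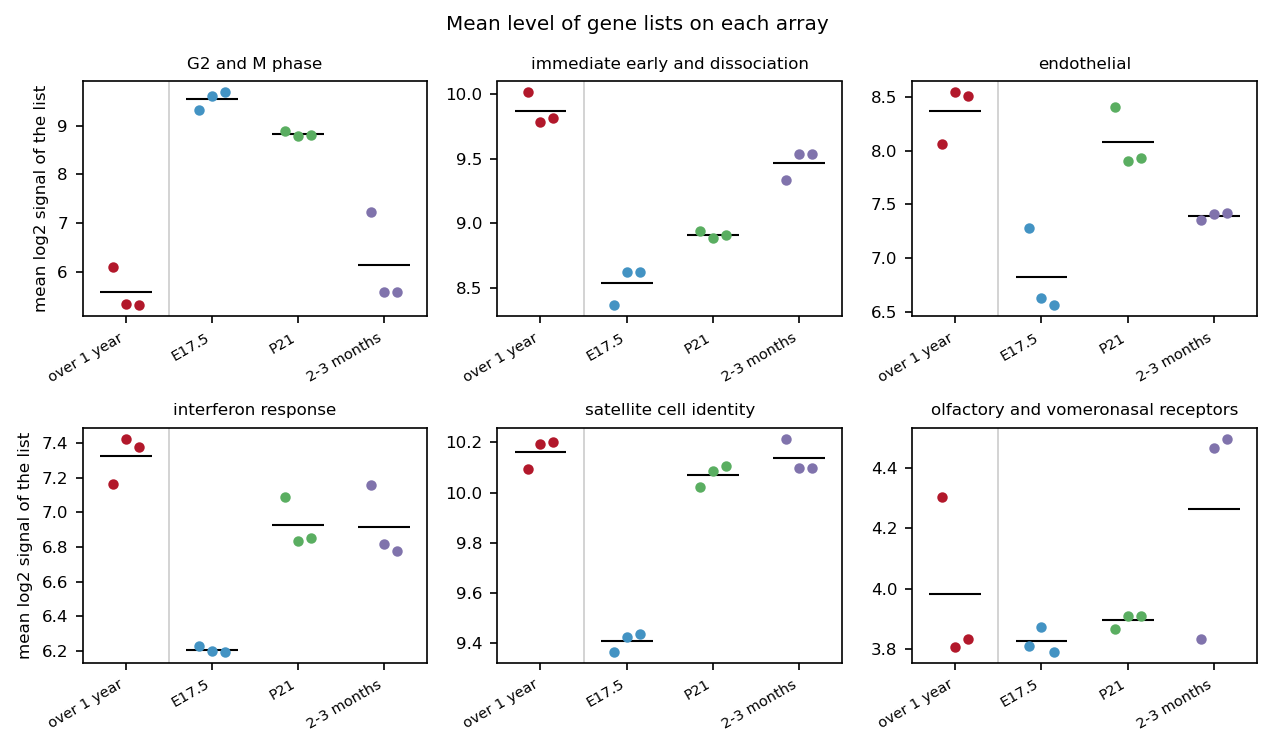
Each panel gives the mean log2 signal of a gene list on each array (points) and the stage mean (line), with aged arrays at the left. Immediate early genes are highest on the aged arrays, endothelial genes are about as high on adolescent as on aged arrays, and the receptor panel shows the 3 arrays with raised background.

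Endothelial markers were higher than the mean of the younger stages at 18 of 19 and higher than in adult cells at 12, but at 0 of 19 did aged cells lie above every younger stage. Vwf alone did so without aged replicate 1, and again without the 3 arrays of high receptor signal. None passed in either direction against adolescent cells. The list mean was 8.06 to 8.54 on aged arrays, 6.56 to 7.28 on fetal, 7.90 to 8.41 on adolescent and 7.36 to 7.42 on adult arrays. Pecam1, an adhesion molecule of vessel walls, read 8.33, 9.31 and 9.22 in aged cells, 7.81, 6.67 and 6.76 in fetal cells, 9.11, 8.24 and 8.36 in adolescent cells and 7.78, 7.40 and 7.47 in adult cells. Aged and adolescent arrays overlapped. Genes above every younger stage that vessel cells are also known to express stand beside this list, among them Calcrl, a receptor for adrenomedullin singled out after its values were seen, at 9.02, 9.64 and 9.33 in aged cells, 8.28, 7.99 and 8.13 in fetal cells, 8.31, 8.21 and 8.21 in adolescent cells and 8.12, 7.99 and 7.86 in adult cells. Unlike the markers, Calcrl was level before old age. Among 15 pericyte and smooth muscle markers, Kcnj8, a potassium channel subunit, lay above every younger stage (9.11, 9.03 and 8.78 in aged cells, 7.35, 6.92 and 6.74 in fetal cells, 8.22, 7.66 and 7.68 in adolescent cells and 8.25, 7.94 and 8.00 in adult cells; adjusted p = 0.0396). It passed in 4 of 12 fits without 1 array, and without aged replicate 1 Abcc9 and Steap4 passed in its place. Of 8 tendon markers, Mkx, a homeobox factor, did (6.89, 7.32 and 6.95 in aged cells and at most 6.10 on a younger array; adjusted p = 0.00198). None of the fibroblast, adipocyte, mast cell, neutrophil, erythroid, Schwann cell or housekeeping lists had a member beyond every younger stage with all 12 arrays. Ngp of the neutrophil list was above every stage without aged replicate 1, Fabp4 of the adipocyte list was above without the 3 arrays of high receptor signal, and 1 fibroblast marker was below without adult replicate 1, as was 1 housekeeping gene without the 3 arrays.

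Of 24 satellite cell identity genes, 13 were higher and 3 lower than the mean of the younger stages, and 0 passed above or below every stage. At 1 gene, Cd34, the aged arrays were above all 9 younger arrays and at 1, Msc, below them. For Pax7 the difference from the mean was 0.63 ± 0.08, and from adult cells 0.03 ± 0.10 (adjusted p = 0.864). Myf5, a myogenic factor, read 10.74, 10.93 and 10.87 in aged cells, 9.44, 9.37 and 9.44 in fetal cells, 10.27, 10.20 and 10.12 in adolescent cells and 10.92, 10.46 and 10.52 in adult cells, so its aged and adult arrays overlapped. The difference from the mean was 0.31 ± 0.09 for Pax3 and 0.71 ± 0.10 for Cd34, a surface marker of quiescent cells. Myod1, the factor of activated cells, differed by -0.01 ± 0.09 (adjusted p = 0.951). The 30 quiescence genes gave 21 higher and 4 lower than the mean of the younger stages, with Klf2 alone above every stage, and Klf2, Rgs4 and Txnip without aged replicate 1. Spry1, an inhibitor of FGF signals, differed from the mean by 0.64 ± 0.08 and from adult cells by 0.07 ± 0.09. Fgf2, the growth factor, read 7.78, 8.05 and 8.06 in aged cells, 7.67, 7.58 and 7.64 in fetal cells, 7.34, 7.25 and 7.24 in adolescent cells and 7.37, 7.20 and 7.23 in adult cells. Its arrays did not overlap, but the adjusted p against every stage was 0.226. Among the 30 genes of FGF, ERK and p38 signalling 0 lay beyond every stage, but Fgf2 passed above every stage without aged replicate 1 and without the 3 arrays of high receptor signal.

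In the Notch pathway, which maintains quiescence, 13 of 29 genes were higher and 3 lower than the mean of the younger stages, 5 were higher than in adult cells and 0 lay beyond every stage. Maml2 passed above every stage without adult replicate 1, and Dll4 without the 3 arrays of high receptor signal. Notch3, a receptor, read 10.98, 11.16 and 11.15 in aged cells, 9.83, 10.13 and 10.14 in fetal cells, 10.23, 10.30 and 10.35 in adolescent cells and 10.83, 10.91 and 10.94 in adult cells, without overlap and with an adjusted p of 0.959 against every stage. The ligand Dll4 read 7.38, 7.73 and 7.92 in aged cells and 6.48, 6.59 and 6.55 in adult cells, and overlapped adolescent cells (7.46, 7.27 and 7.27). It is also known as a ligand of vessel cells, and like the mean of the endothelial list it was higher on adolescent than on adult arrays. The part of vessel cells in its level was not tested. The target Hes1 read 10.16, 9.84 and 9.89 in aged cells and 9.61, 9.50 and 9.49 in adult cells, with an adjusted p of 0.0879 against every stage. The Wnt pathway gave 3 of 44 higher and 3 lower than the mean of the younger stages and 0 beyond every stage.

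Inhibitors of the cell cycle and markers of senescence had 0 of 21 members beyond every younger stage, and 3 below without the 3 arrays of high receptor signal. Cdkn2a, the p16 gene, read 5.91, 5.54 and 5.63 in aged cells, 5.64, 5.78 and 5.52 in fetal cells, 5.87, 5.83 and 5.70 in adolescent cells and 5.86, 6.05 and 5.80 in adult cells. The 4 stages overlapped, and the difference from the mean was -0.09 ± 0.10 (adjusted p = 0.615). Gadd45a, a stress-response gene, read 9.58, 8.41 and 8.20 in aged cells and at most 7.73 on a younger array, with aged replicate 1 far above the others and an adjusted p of 0.15 against every stage. In the senescence-associated secretion list 15 of 38 were higher and 4 lower than the mean of the younger stages, and 1 lay above every stage, or 3 without adult replicate 1. That 1 was Fas, the death receptor, at 6.50, 6.87 and 6.89 in aged cells, 5.16, 4.95 and 5.02 in fetal cells, 6.26, 5.95 and 5.88 in adolescent cells and 5.94, 5.86 and 5.96 in adult cells (0.72 ± 0.13, adjusted p = 0.0225).

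The 18 clock genes gave 15 higher and 0 lower than the mean of the younger stages (median 0.67) and 1 above every stage, the repressor Cry2, at 8.24, 8.34 and 8.21 in aged cells, 7.41, 7.34 and 7.38 in fetal cells, 7.46, 7.43 and 7.53 in adolescent cells and 7.92, 7.73 and 7.76 in adult cells (0.46 ± 0.09, adjusted p = 0.0333, 3 of 12 fits without 1 array). The hour of dissection is not given in the sources used here. Single members of other lists passed as well. They were Gsta4, a glutathione transferase (0.72 ± 0.15), Ldhb, a lactate dehydrogenase subunit (0.63 ± 0.11), Fbxo32, a ubiquitin ligase of muscle atrophy (0.66 ± 0.14), Col4a6, a chain of basement membrane collagen (0.66 ± 0.12) and Fbln2, a fibulin of the matrix (0.78 ± 0.14). Gsta4 (adjusted p = 0.0454) passed in 1 of 12 fits without 1 array, Fbxo32 (adjusted p = 0.0481) in 2, Fbln2 in 6, and Ldhb and Col4a6 in 7. Each was the only member of its list above every younger stage, in lists of 38, 23, 23, 32 and 43 measured genes.

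Below every younger stage stood 4 genes, named after their values were seen where the naming rule left them out. H2ac1, a histone, read 6.53, 6.23 and 6.32 in aged cells, 7.60, 7.79 and 7.69 in fetal cells, 7.01, 7.22 and 7.09 in adolescent cells, with a mean of 6.96 in adult cells (-0.60 ± 0.11, adjusted p = 0.0215). Serpinh1, a chaperone of collagen folding, read 8.08, 7.95 and 8.17 in aged cells, 9.03, 9.21 and 9.07 in fetal cells, 9.28, 8.99 and 9.05 in adolescent cells and 8.78, 8.53 and 8.64 in adult cells (-0.58 ± 0.11, adjusted p = 0.0318). H2ac1 fell at each stage and Serpinh1 was level in fetal and adolescent cells. The other 2 go by clone or predicted names, A930003A15Rik (-0.58 ± 0.12) and Gm1976 (-0.51 ± 0.11). Beside Serpinh1, of 32 collagen genes 13 were lower and 5 higher than the mean of the younger stages, 1 was lower than in adult cells and 0 lay below every stage, or 12 and 2 without adult replicate 1. In the muscle commitment list, where 15 of 29 were lower and 3 higher than the mean of the younger stages, Actc1, the cardiac actin of immature muscle, read 8.27, 7.67 and 7.57 in aged cells, 12.13, 12.07 and 12.02 in fetal cells, 11.01, 11.76 and 11.79 in adolescent cells and 10.50, 9.05 and 8.91 in adult cells. Its arrays did not overlap, and its adjusted p against every stage was 0.0552.

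Against the mean of the younger stages 4857 genes passed, 2516 higher and 2341 lower in aged cells, of which 446 and 397 differed at least 2-fold. The 167 genes above every stage were 6.64% of the 2516, and the 4 below were 0.171% of the 2341. The aged mean lay between the younger stage means at 184 of the higher and 794 of the lower genes. The comparisons with single stages share the aged arrays. They gave 3267 higher (16.4%) and 3871 lower (19.4%) against fetal cells, 1611 (8.08%) and 2288 (11.5%) against adolescent cells, and 654 and 43 against adult cells. The 5 largest rises against the mean were Akr1c14 (3.52 ± 0.16), an aldo-keto reductase of steroid metabolism, Jchain, Grin2a (3.10 ± 0.18), P2ry14 (3.05 ± 0.11), a receptor for UDP-sugars, and Lncpint (2.95 ± 0.16), a long noncoding RNA. Akr1c14 read 9.41, 9.84 and 9.73 in aged cells, 4.79, 3.96 and 4.22 in fetal cells, 5.65, 5.24 and 5.15 in adolescent cells and 8.74, 8.83 and 8.65 in adult cells. Most of its rise lay between adolescent and adult age, and its adjusted p against every stage was 0.0564. P2ry14 read 10.01, 9.98 and 10.00 in aged cells, 5.31, 5.46 and 5.31 in fetal cells, 6.61, 6.45 and 6.53 in adolescent cells and 9.33, 8.69 and 8.82 in adult cells (1.05 ± 0.14 over adult cells, adjusted p = 0.00259).

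The 5 largest fitted falls against the mean were those of Nrk, a kinase of fetal tissues, and of cell cycle genes. Nrk read 4.31, 4.34 and 4.17 in aged cells, 11.71, 11.43 and 11.66 in fetal cells, 8.02, 7.58 and 7.71 in adolescent cells and 4.62, 4.67 and 4.70 in adult cells (-3.74 ± 0.10). Aged and adult levels both lay within the range of receptor signal. The others were H2ac4 (-3.59 ± 0.67), a histone, Bub1 (-3.44 ± 0.44), a mitotic checkpoint kinase, Depdc1a (-3.25 ± 0.32), and Kif11 (-3.23 ± 0.44), a spindle motor. The aged and adult means of H2ac4, Bub1 and Depdc1a also lay within the range of receptor signal, so the order of these falls is not measured. All 33 G2 and M phase genes and 28 of 29 S phase genes were lower than the mean of the younger stages, and 0 of either list lay below every stage. Mki67 read 7.38, 6.46 and 6.15 in aged cells, 10.82, 10.99 and 11.03 in fetal cells, 10.56, 10.54 and 10.55 in adolescent cells and 9.28, 6.58 and 6.44 in adult cells. The mean of the G2 and M list was 6.10, 5.36 and 5.32 on the aged arrays and 7.24, 5.60 and 5.61 on the adult arrays, so aged replicate 1 and adult replicate 1 were each the highest of their stage. Without the 3 arrays of high receptor signal, which leaves adult replicate 1 as the adult array, 31 of the 33 and 15 of the 29 lay below every younger stage. Myog, the factor of differentiating cells, read 7.38, 6.81 and 6.62 in aged cells, 9.38, 9.34 and 9.36 in fetal cells, 9.64, 10.33 and 10.33 in adolescent cells and 9.50, 7.32 and 7.49 in adult cells, and here too adult replicate 1 stood with the earlier stages. In the imprinted and fetal growth list 14 of 21 were lower and 1 higher than the mean of the younger stages, and among 40 respiratory chain genes 17 were lower and 0 higher, with 0 of either list beyond every stage. Without the 3 arrays of high receptor signal, 5 imprinted, 7 respiratory chain and 6 muscle commitment genes lay below every stage.

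**Figure D5:**
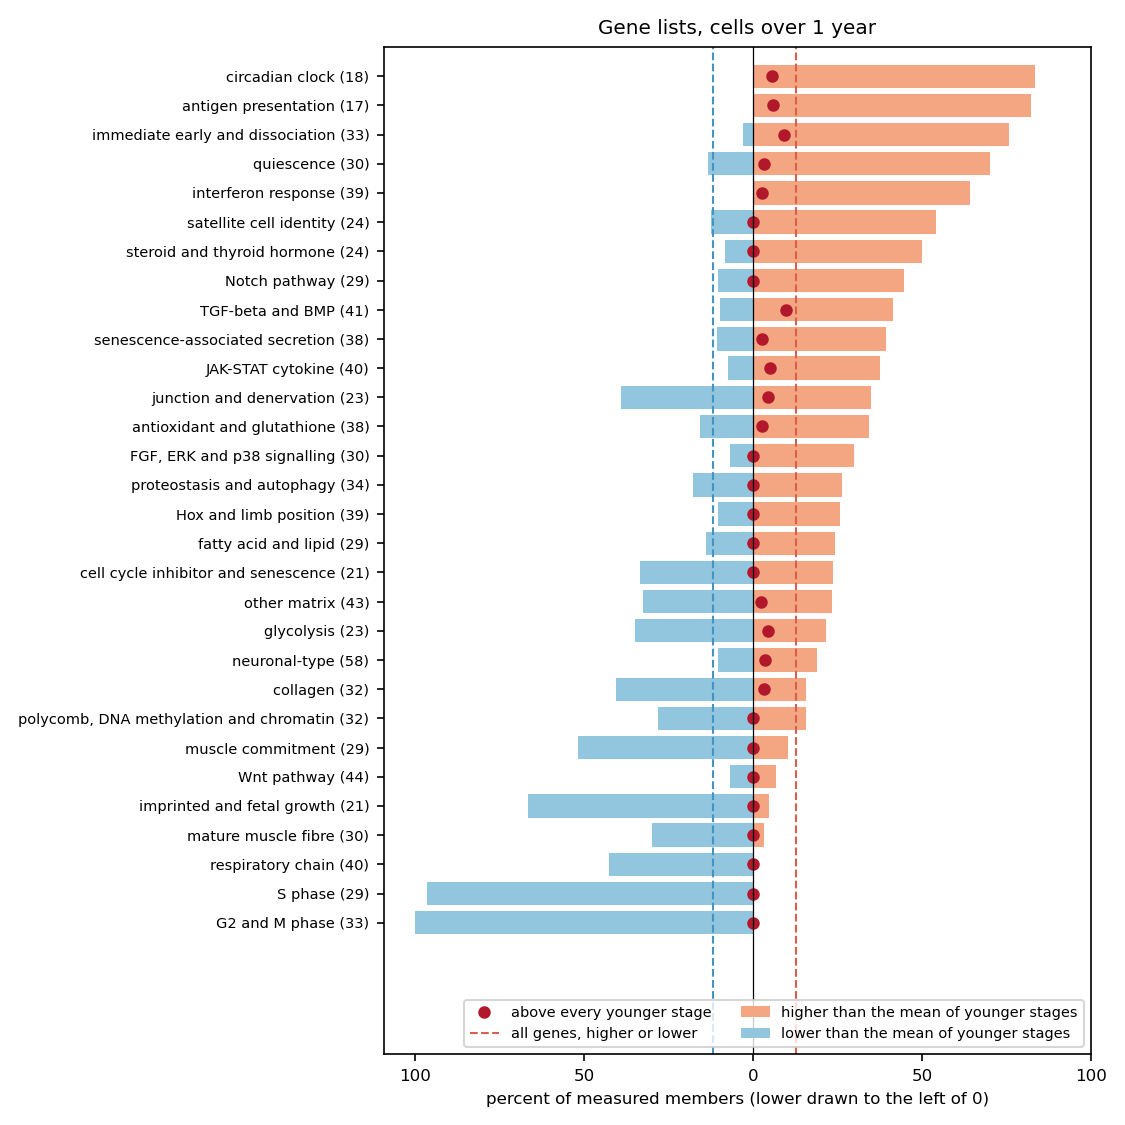
Bars give, for the 30 group lists without the markers of other cell types, the percent of measured members (number in brackets) that were higher (right) or lower (left) in aged cells than the mean of the younger stages, and red points the percent above every younger stage. Dashed lines mark the shares over all genes, 12.6% and 11.7%. Clock, antigen presentation and immediate early genes reach farthest to the right among these lists, and S and G2 and M phase genes farthest to the left.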

How the data were processed

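The authors deposited log2 RMA signals, made with Expression Console 1.2.1.20 (Affymetrix) per the submitters' processing notes. They were used as given, and the genome build is not given in the sources used here. RMA gives no detection call, so receptor probe sets served as background. Of 35556 probe sets, 21789 had 1 symbol, 1621 several and 12146 none. For each of 19938 genes the probe set with the highest mean over 12 arrays was kept, which affected 999 genes. A single limma 3.58.1 model (R 4.3.3) with a mean per stage left 8 residual degrees of freedom. Two-sided p-values were adjusted over all genes by Benjamini-Hochberg and called under 0.05, and the contrasts and the test against every younger stage came from that fit. ± gives the standard error of the fit.

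The stage contrast, 42 gene lists (1111 of 1190 names matched) and alternatives were chosen with earlier results of these data known. Named genes are the 12 largest rises and falls by nearest difference among genes past the test with arrays that do not overlap and a mean of at least 6, the 5 largest with younger means within 0.5, the 5 largest rises and falls against the mean, up to 3 called members of each list and fixed genes, without predicted genes, clones, small RNAs, receptors and antigen receptor segments. Other genes named were chosen after their values were seen. Cdkn1a and Gapdh were not analysed here. Alternatives were other normalizations, filters, probe set rules, variance models, array weights, a replicate block, a receptor covariate, averaging of replicates 2 and 3, stricter or looser tests, fewer stages and leaving out arrays. On simulated arrays of 19938 genes the test recovered 27 of 67 genes changed 1.5-fold, 66 of 67 changed 2-fold and 65 of 66 changed 4-fold. There were 0 false calls of 19738. The simulated noise was independent for each gene and array. It lacked the receptor signal and dividing cells that differ between the real arrays, so these rates do not carry over to them.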

Additional observations from a re-analysis of the deposited data

Results flagged for a closer look

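Outside the genes with 1 symbol, 13767 probe sets had no symbol or several. Of these, 14 lay above every younger stage in aged cells and 0 below, by the same limma test over all probe sets. They are unnamed here and enter no count above, and no control samples without the reporter were at hand to set them against.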

How the results depend on the processing

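The number of genes beyond every younger stage (171) was 266 (239 above, 27 below) with receptor signal as a covariate, 846 without the 3 arrays of high receptor signal, 3946 with array weights, whose estimate in limma did not converge, 1 with replicates 2 and 3 averaged, 11 against a 1.5-fold change, 376 where each contrast had to pass on its own and 1310 by array ranges alone. Without 1 array it ran from 67 to 464. Deviations from stage means correlated at -0.435 to 0.0985 between aged and younger arrays of equal replicate number and at -0.416 to 0.447 otherwise. With 3 arrays a stage, whose receptor signal also differs, these values cannot show whether replicate numbers pair the arrays. With replicate number as a block the number of genes beyond every younger stage was 140, of which 121 were among the 171. Repeated quantile normalization gave 191, centring 119, a floor at 6 gave 167, of which 120 were among the 171, and a filter on dim genes 222. For list genes (20 in the fit of all arrays) the counts were 13 with centring, 301 with array weights, 0 with averaging, 36 with the covariate, 113 without the 3 arrays and 1 against 1.5-fold, and 8 to 40 without 1 array. Against the mean (4857) they were 15848 with array weights, 1943 with averaging, 702 against 1.5-fold, 2366 with adolescent and adult stages only and 365 with the 9 younger arrays as 1 group. Against adult cells (697) they were 176 from the arrays of both stages alone and 214 to 7844 without 1 array. Adolescent cells beyond every other stage (17) ran from 5 to 85, and adult cells (0) from 0 to 3273. Myod1 against the mean turned positive with quantile normalization (0.0384) and averaging (0.0345), and ran from -0.113 to 0.0700 without 1 array. No named gene beyond every stage changed its direction: 735 results kept their side of the threshold and 201 lost it. The causes were not tested. The limits are 3 arrays a stage, no detection call, and receptor signal and dividing cells that differ between arrays of a stage.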
